A study of Homo sapiens with 6 samples.

Results

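The genes described here encode the semaphorins, ephrins and netrins, which are ligands of axon and cell guidance, and the plexins, neuropilins, Eph receptors, UNC5 receptors, DCC and neogenin, which receive them. They were picked out by gene symbol, a rule that uses no expression value but was drawn up with earlier results of these data known, and numbered 65 of the 47470 genes listed in the count tables. Of the 65, 34 were ligands and 31 were receptors, and 54 had enough reads to be tested (28 ligands and 26 receptors). RNA-seq had been performed on wild-type HEK293T, an established cell line derived from embryonic kidney and expressing large T antigen of SV40. The cells of the 3 untreated libraries received no valproic acid (VPA), and those of the 3 VPA libraries were exposed to it for 1 day at 1 mM. VPA inhibits histone deacetylases, the enzymes that remove acetyl groups from histones. Nothing in the labels states that the libraries of a condition came from separate cultures, so the p-values below measure only the spread between these libraries, which may be technical. The comparison asks which guidance genes differed between VPA-treated and untreated cells, and how the ligands compared with the receptors.

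Guidance cues steer migrating cells and growing axons by attraction or repulsion. Semaphorins signal through plexins, and the secreted class 3 semaphorins mostly need a neuropilin as the binding subunit of the receptor. Ephrins are tethered to the membrane and bind Eph receptor tyrosine kinases on the neighbouring cell, and the ephrin itself can signal back into its own cell. Netrins attract through DCC and neogenin and repel through UNC5 receptors, while netrin-G proteins are held on the membrane and bind partners of the NGL family.

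Every library held between 18622267 and 18828495 reads counted on genes, and the spread between libraries of a condition was small (biological coefficient of variation 3.83%). Values per library are read counts scaled by the trimmed mean of M-values (TMM) to the mean library, called normalized counts. Genes are called up-regulated or down-regulated when the Benjamini-Hochberg adjusted p of edgeR's quasi-likelihood test, over all 15298 genes tested, was below 0.05 and the log2 fold change was at least 1 in size. Genes past the adjusted p alone are called higher or lower. In bulk RNA, fewer cells expressing a gene and less RNA per cell cannot be told apart. Markers of other cell types moved too. The summed normalized counts of 5 fibroblast markers were 438 to 496 in untreated and 1500 to 1667 in VPA libraries, with COL1A1, DCN and LUM up-regulated among the 4 tested and COL1A2 at 0 in every untreated library. The 5 endothelial markers summed to 11.4 to 22.0 and 136 to 169, with VWF and KDR up-regulated as the only 2 tested and CDH5 at 0 in every untreated library. Most of that sum was KDR, with a mean of 13.9 untreated and 134 with VPA. VWF (0, 3.14 and 0 normalized counts untreated) and DCN (0, 0 and 3.15) were tested only through the VPA libraries. The 6 leukocyte markers summed to 19.7 to 38.7 and 36.4 to 49.8, with PTPRC and CD3E at 0 in every untreated library. Of 10 genes of the renal and HEK293 lineage, 9 were tested and 2 were up-regulated, where 12.0% of all genes were. By the adjusted p alone 4 were higher, these 2 included, and 4 were lower, where 32.9% and 30.0% of all genes were. PAX8 was at 0 in every untreated library. The sum of the 10 genes was 10066 to 10268 untreated and 13039 to 13835 with VPA. The part of these markers in the results below was not tested.

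The promoter sequences of 6 guidance genes are shown because these genes carry the pattern described below, 4 of them being up-regulated receptors and 2 being abundant genes that were lower after VPA. Each runs 5′ to 3′ over the 250 bases before the outermost RefSeq transcript start (GRCh38.p14), and capitals mark the GC box, read as GGGCGG or its reverse complement CCGCCC. PLXNC1 lies at chr12:94148327-94148576 (plus strand), UNC5A at chr5:176810309-176810558 (plus), EPHB2 at chr1:22710588-22710837 (plus), PLXND1 at chr3:129606677-129606926 (minus), EFNB2 at chr13:106535663-106535912 (minus) and EPHA7 at chr6:93419560-93419809 (minus).
PLXNC1: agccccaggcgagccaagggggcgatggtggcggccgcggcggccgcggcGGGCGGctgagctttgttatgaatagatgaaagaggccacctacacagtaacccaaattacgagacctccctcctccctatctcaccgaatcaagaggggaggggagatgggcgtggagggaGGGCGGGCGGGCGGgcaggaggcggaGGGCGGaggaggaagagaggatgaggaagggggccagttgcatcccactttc
UNC5A: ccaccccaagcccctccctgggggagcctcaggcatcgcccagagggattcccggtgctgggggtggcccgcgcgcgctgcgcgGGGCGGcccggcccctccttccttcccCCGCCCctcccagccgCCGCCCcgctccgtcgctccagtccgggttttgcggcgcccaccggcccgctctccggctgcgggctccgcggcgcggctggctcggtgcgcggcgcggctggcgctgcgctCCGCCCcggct
EPHB2: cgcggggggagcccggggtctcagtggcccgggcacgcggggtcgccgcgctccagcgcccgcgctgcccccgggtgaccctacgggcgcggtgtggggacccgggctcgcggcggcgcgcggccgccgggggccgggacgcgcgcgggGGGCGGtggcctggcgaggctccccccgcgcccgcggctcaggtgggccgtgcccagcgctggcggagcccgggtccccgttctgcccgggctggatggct
PLXND1: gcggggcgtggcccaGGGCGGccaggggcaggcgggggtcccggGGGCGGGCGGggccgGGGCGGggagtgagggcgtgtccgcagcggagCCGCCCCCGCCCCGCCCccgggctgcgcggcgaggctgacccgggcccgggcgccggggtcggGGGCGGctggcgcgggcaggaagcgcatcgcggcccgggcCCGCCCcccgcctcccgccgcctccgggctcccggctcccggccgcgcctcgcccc
EFNB2: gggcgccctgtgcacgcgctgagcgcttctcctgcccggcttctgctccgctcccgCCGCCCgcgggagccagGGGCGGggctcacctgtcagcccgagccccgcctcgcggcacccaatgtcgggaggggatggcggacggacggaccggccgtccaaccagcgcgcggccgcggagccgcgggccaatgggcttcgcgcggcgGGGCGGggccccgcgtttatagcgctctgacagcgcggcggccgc
EPHA7: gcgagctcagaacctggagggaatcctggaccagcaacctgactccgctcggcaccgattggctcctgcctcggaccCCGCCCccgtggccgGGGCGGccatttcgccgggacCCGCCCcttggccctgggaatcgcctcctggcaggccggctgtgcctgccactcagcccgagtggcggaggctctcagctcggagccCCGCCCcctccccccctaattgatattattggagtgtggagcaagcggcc

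The windows held 5 GC boxes in PLXNC1, 4 in UNC5A, 1 in EPHB2 and 9 in PLXND1, all of them up-regulated, against 3 in EFNB2 and 4 in EPHA7, both lower. The GC content was 65.2%, 81.2%, 84.8% and 88.8% in the first 4 and 78.4% and 69.6% in EFNB2 and EPHA7, so the 2 directions overlapped in both measures. EFNB2 and EPHA7 each also held 2 CCAAT boxes (CCAAT or ATTGG), which the other windows shown lacked. Among windows not shown, the up-regulated EPHB1 held 2, EPHB3 and SEMA3F held 1 each, and the other up-regulated guidance genes held 0. Of the lower genes, UNC5C held 1 and EFNA5, EPHA4, SEMA3C and SEMA6D held 0. The 2 directions therefore overlapped in this motif too. A GC box stood in 41.7% of the 24885 promoter windows of the same length and a CCAAT box in 33.4%. A TATA box, read as TATAAA on the strand of the gene alone, stood in 7.37%. Among the 10299 windows of genes tested here the shares were 67.1%, 35.0% and 3.36%. A comparison of the motif over all guidance genes is void, because only 35 of the 54 tested genes had a window, fewer than 80%. A match of letters is a description of the window and not a binding site.

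After VPA, 18 of the 54 tested guidance genes were up-regulated (33.3%), where 12.0% of all genes tested were, and NRP1 was the only guidance gene down-regulated, where 0.503% of all genes were. By the adjusted p alone 38 guidance genes were higher and 10 were lower, where the background was 32.9% and 30.0%. The other 6 did not pass the test. With libraries scaled to ribosomal protein genes the split was 45 higher and 5 lower, where 9185 of all 15298 genes were higher and 870 lower. The median log2 fold change was 0.50 over the tested guidance genes and 0.0058 over all genes. The 3 VPA values all lay above the 3 untreated values for 39 genes and all below for 9, against 34.8% and 31.0% of all genes, and the ranges overlapped for 6. Of the up-regulated genes, EPHB6, SEMA5B and NTNG1 had normalized counts of at most 11.5 in the untreated libraries and passed the filter on low counts through the VPA libraries, so their difference was partly a condition of being tested. With glmTreat, which tests against the fold threshold itself, 14 of the 18 were called, SEMA3A, SEMA7A, PLXNB1 and EPHA10 were not, and NRP1 had an adjusted p of 0.34.

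Up-regulated genes were commoner at low counts, among the guidance genes as among all genes, as the plot of fold change against count shows. Below a mean normalized count of 50, 3 of the 5 tested guidance genes were up-regulated, against 29.4% of all such genes. Between 50 and 200 it was 10 of 17, against 24.3%. Between 200 and 1000 it was 4 of 23, against 5.78%, and at 1000 or more it was PLXND1 alone of 9, against 0.732%. The median log2 fold changes of the guidance genes in the 4 classes were 2.08, 1.12, 0.35 and -0.04, and those of all genes were 0.39, 0.34, 0.01 and -0.15.

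**Figure D1:**
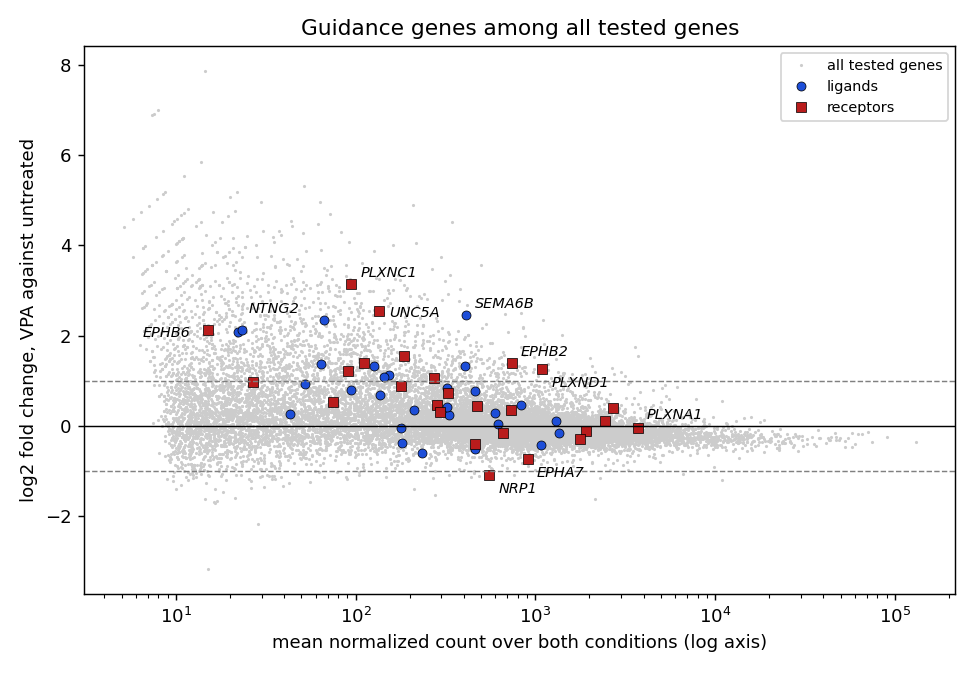
Log2 fold change (VPA against untreated) against mean normalized count (log axis) for all tested genes (grey), guidance ligands (blue circles) and guidance receptors (red squares), with dashed lines at a log2 fold change of 1 and -1. The up-regulated guidance genes lie mostly below a mean of 1000, and NRP1 is the only guidance gene below the lower line.

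Levels of different genes are compared per length, as normalized counts per kb of canonical transcript per 1000000 reads of the mean library. EFNB1, PLXNA3 and PLXNB3 lie on the X chromosome, whose genes were all listed at 0 in these files. The rankings, shares and sums here and below therefore say nothing of these genes. The most abundant guidance gene in untreated cells was EPHB4, at 24.3 untreated and 22.6 with VPA on this scale. PLXNA1 (21.6 and 21.0), PLXNB2 (19.6 and 25.6), NEO1 (17.7 and 19.0) and UNC5B (15.4 and 12.5) followed, all of them receptors. The most abundant ligands in untreated cells were EFNB2 (13.2 and 9.89), NTN1 (11.2 and 12.0) and SEMA6A (11.1 and 9.99). None of these 8 genes reached a log2 fold change of 1 in size. Summed by family, the level went from 11.1 to 18.1 for the secreted semaphorins (ratio 1.63), from 49.2 to 65.8 for the membrane semaphorins (1.34), from 48.8 to 64.5 for the plexins (1.32) and from 28.2 to 33.3 for the EphB receptors (1.18). The netrin-G sum was small and went from 0.320 to 1.58 (4.95). The EphA sum went from 25.1 to 25.8 (1.03), and the sums of the UNC5 receptors (18.8 to 18.0, ratio 0.955) and neuropilins (12.3 to 9.95, ratio 0.808) stood lower with VPA.

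Among the ligands, the secreted class 3 semaphorins were led by 4 up-regulated genes of 7. SEMA3F, a repellent that signals through NRP2, had 237, 244 and 214 normalized counts untreated and 590, 567 and 579 after VPA. The groups did not overlap, and the log2 fold change was 1.32 ± 0.070 (SE, n = 3 and 3, edgeR adjusted p = 5.94e-13). SEMA3E, which binds PLXND1 directly, had 74.5, 70.1 and 71.4 untreated and 156, 193 and 191 with VPA (log2 fold change 1.32, edgeR adjusted p = 4.19e-09). SEMA3B rose by 1.37 and SEMA3A, the collapsing factor of sensory axons that binds NRP1, by 1.12 on the log2 scale. SEMA3D was higher by 0.67, and SEMA3G did not pass (log2 fold change -0.05, edgeR adjusted p = 0.66), though with ribosomal protein scaling it passed as higher (0.22).

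SEMA3C went the other way. It had 265, 271 and 311 normalized counts untreated and 181, 182 and 194 after VPA, again without overlap (log2 fold change -0.60, edgeR adjusted p = 3.87e-06). The ratio of SEMA3F to SEMA3C reads, which does not depend on the scaling between libraries, was 0.895, 0.900 and 0.689 untreated and 3.26, 3.12 and 2.98 with VPA. SEMA3C, SEMA3E, SEMA3A and SEMA3D lie on chromosome 7 (GRCh38.p14, SEMA3C at 80742538 to 80922389 and SEMA3D at 84995553 to 85250243), where SEMA3C is separated from SEMA3E by 2441 kb. SEMA3E and SEMA3A are 307 kb apart and SEMA3A and SEMA3D 503 kb apart. On that stretch SEMA3C was lower while SEMA3E and SEMA3A were up-regulated and SEMA3D was higher. SEMA3F and SEMA3B, both up-regulated, lie 71.2 kb apart on chromosome 3. An antisense gene of SEMA3F, SEMA3F-AS1, had 76 reads in all and was down-regulated (log2 fold change -1.14, edgeR adjusted p = 0.0059). The strand setting of the counting is not given, so reads of a gene and of its opposite-strand partner may not have been separated.

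Of the membrane-bound semaphorins, 3 of 12 tested genes were up-regulated, and the median log2 fold change was 0.36, with a range from -0.38 to 2.45. SEMA6B (chromosome 19, 4542593 to 4559684), a ligand of PLXNA4, had 121, 126 and 132 normalized counts untreated and 732, 652 and 692 with VPA. It lay far apart in the conditions (log2 fold change 2.45 ± 0.078, SE, n = 3 and 3, edgeR adjusted p = 1.9e-16). The other 2 were SEMA5B, with 6.21, 11.5 and 8.40 untreated and 46.0, 31.8 and 36.4 with VPA (log2 fold change 2.11), and SEMA7A, the GPI-anchored ligand of PLXNC1, with 89.0, 84.8 and 103 untreated and 204, 191 and 190 with VPA (log2 fold change 1.08). SEMA4B, SEMA4D, SEMA4F, SEMA4G and SEMA6C were higher by 0.23 to 0.83, SEMA4B not passing with DESeq2 (0.21). SEMA4G overlaps MRPL43 on the opposite strand, which had 8029 reads and was lower (-0.13). SEMA6A (-0.15) and SEMA6D (-0.38) were lower, but the SEMA6A call was lost with upper quartile scaling (-0.089) and library totals (-0.023). With ribosomal protein scaling, which put the median of all genes at 0.27, SEMA6A passed as higher (0.11, edgeR adjusted p = 0.044) and SEMA6D did not pass (-0.11). SEMA4A (0.27) and SEMA4C (0.03) did not pass, though with ribosomal protein scaling both passed as higher (0.54 and 0.30), SEMA4C also with library totals (0.16).

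On the scale of counts per kb per 1000000 reads, SEMA6B went from 1.75 to 9.57, close to SEMA6A, which stood at 11.1 untreated and 9.99 with VPA. Within the membrane semaphorins the share of SEMA6B rose from 3.55% to 14.5% while that of SEMA6A went from 22.6% to 15.2%.

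None of the 5 tested ephrins, the ligands of the Eph receptors, reached a log2 fold change of 1 in size. All 5 passed the adjusted p, by which 32.9% of all genes were higher and 30.0% lower. Ephrin-B2 and ephrin-B3 moved in opposite directions. EFNB2, which marks arterial endothelium and pairs with EPHB4, had 1247, 1233 and 1219 normalized counts untreated and 885, 905 and 984 with VPA (log2 fold change -0.41, edgeR adjusted p = 4.13e-07). EFNB3, a midline barrier in the spinal cord, had 340, 341 and 338 untreated and 581, 608 and 558 with VPA (log2 fold change 0.78). Both genes separated the conditions without overlap, and the ratio of EFNB3 to EFNB2 reads went from 0.272, 0.277 and 0.277 to 0.656, 0.672 and 0.567. On the scale per kb of transcript EFNB3 made up 30.0% of the summed level of EFNB2 and EFNB3 in untreated cells and 49.5% with VPA. Of the A class, EFNA1 and EFNA2 were higher by 0.35 and 0.93 and EFNA5 was lower by a log2 fold change of -0.51.

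Of the netrins, NTN4 was higher by 0.78, and NTN1, the attractant of commissural axons, did not pass (log2 fold change 0.10, edgeR adjusted p = 0.080). NTN1 did pass as higher with upper quartile, library total and ribosomal protein scaling, at 0.16, 0.23 and 0.37. It also passed with at least 10 counts in every library (0.12) and with the replicate number as a block (0.099). The netrin-G genes were both up-regulated from low counts. NTNG2 had 32.1, 13.6 and 19.9 normalized counts untreated and 121, 98.3 and 118 with VPA (log2 fold change 2.35, edgeR adjusted p = 1.1e-09). NTNG1 had 9.32, 6.28 and 9.45 untreated and 32.6, 38.5 and 36.4 with VPA (log2 fold change 2.08). LRRC4, the NGL-2 partner of netrin-G2, was lower (-0.86), and LRRC4C, the NGL-1 partner of netrin-G1, had no count in any library.

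Among the receptors, the plexins had 3 up-regulated genes of 7 tested and 6 that were higher by the adjusted p. PLXNC1, the receptor of SEMA7A, had 17.6, 20.9 and 18.9 normalized counts untreated and 165, 181 and 166 with VPA, the largest rise of all tested guidance genes (log2 fold change 3.15 ± 0.151, SE, n = 3 and 3, edgeR adjusted p = 1.2e-13). Its exons overlap those of CEP83 on the opposite strand, and CEP83, with 2998 reads, did not pass the test (log2 fold change -0.04). PLXND1, the receptor of SEMA3E in vessels, had 671, 644 and 608 untreated and 1580, 1517 and 1538 with VPA (log2 fold change 1.27 ± 0.051, edgeR adjusted p = 8.15e-15). PLXNB1, the receptor of SEMA4D, had 173, 196 and 162 untreated and 398, 334 and 369 with VPA (log2 fold change 1.05). That last call was close to the threshold, falling below a log2 fold change of 1 without untreated replicate 3 (0.99) or without VPA replicate 1 (0.99). PLXNA4, PLXNA2 and PLXNB2 were higher by 0.98, 0.73 and 0.39, and PLXNA1, the most counted plexin, did not pass (log2 fold change -0.04, edgeR adjusted p = 0.458) but passed as higher with ribosomal protein scaling (0.23).

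The 2 neuropilins, the binding subunits shared by the class 3 semaphorins, diverged. NRP1 had 784, 768 and 712 normalized counts untreated and 346, 362 and 361 with VPA, the only guidance gene below a log2 fold change of -1 (-1.08 ± 0.062, SE, n = 3 and 3, edgeR adjusted p = 2.1e-12). NRP2 had 629, 651 and 650 untreated and 844, 814 and 796 with VPA (log2 fold change 0.35, edgeR adjusted p = 9.67e-06). Neither gene overlapped between the conditions. The ratio of NRP2 to NRP1 reads was 0.803, 0.847 and 0.913 untreated and 2.44, 2.25 and 2.20 after VPA, so the order of the 2 genes reversed in every library. NRP1 passed the adjusted p under every scaling tried, though its fold fell short of the threshold at -0.95 with library totals and at -0.81 with ribosomal protein scaling. NRP1 lies on chromosome 10 (33177493 to 33334667, minus strand) and NRP2 on chromosome 2 (205682501 to 205798131, plus strand).

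Of the EphB receptors, 4 of 5 were up-regulated, the largest share of any receptor family with more than 3 genes tested, and their median was 1.40. EPHB2 had 409, 412 and 398 normalized counts untreated and 1055, 1067 and 1090 with VPA (log2 fold change 1.40 ± 0.055, SE, n = 3 and 3, edgeR adjusted p = 5.16e-15). EPHB1 had 93.2, 92.1 and 98.7 untreated and 283, 279 and 271 with VPA (log2 fold change 1.55), and EPHB3 had 53.8, 64.9 and 65.1 and 173, 166 and 146 (log2 fold change 1.40). EPHB6, whose kinase domain is inactive, had 5.18, 3.14 and 8.40 untreated and 23.0, 28.9 and 22.0 with VPA (log2 fold change 2.12). No EphB gene that was up-regulated overlapped between conditions, which the call itself largely fixed. Of all tested genes, 34.8% lay above untreated in every VPA library.

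EPHB4, the venous receptor of ephrin-B2 and the most abundant EphB gene, did not pass the test (log2 fold change -0.11, edgeR adjusted p = 0.066), but its call depended on the setting. It passed as higher with ribosomal protein scaling (0.16, edgeR adjusted p = 0.0092). It passed as lower with DESeq2 size factors (-0.12), with no filter (-0.13), with the replicate number as a block (-0.11) and without untreated replicate 3 (-0.15) or VPA replicate 1 (-0.14). Its share of the EphB level per kb of transcript went from 86.2% to 67.8%, and the shares of EPHB2 and EPHB1 went from 6.97% to 15.6% and from 3.84% to 9.52%. The ratio of EPHB2 to EPHB4 reads was 0.195, 0.209 and 0.211 untreated and 0.547, 0.578 and 0.621 with VPA. SLC12A9, which overlaps EPHB4 on the opposite strand with 4704 reads, did not pass either (log2 fold change 0.13).

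The EphA receptors had 1 up-regulated gene of 8, EPHA10, a kinase-inactive member, with 65.2, 46.1 and 52.5 normalized counts untreated and 132, 123 and 128 with VPA (log2 fold change 1.23, edgeR adjusted p = 7.58e-08). EPHA2, EPHA3, EPHA5, EPHA6 and EPHA8 were higher by 0.31 to 0.88. EPHA7, a receptor of ephrin-A5, was lower, with 1192, 1093 and 1107 untreated and 658, 707 and 686 with VPA (log2 fold change -0.73, edgeR adjusted p = 1.72e-10). The conditions did not overlap, and the share of EPHA7 in the EphA level per kb went from 36.4% to 21.3% while EPHA3 went from 14.9% to 19.7%. EPHA4, the least changed of the family, had a log2 fold change of -0.15 at an adjusted p of 0.047. It did not pass when any 1 library other than untreated replicate 1 was left out, nor with upper quartile scaling (-0.083), library totals (-0.017), ribosomal protein scaling (0.12), at least 10 counts in every library (-0.13) or DESeq2 (-0.17).

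The UNC5 receptors also differed among themselves. UNC5A had 36.2, 41.9 and 39.9 normalized counts untreated and 259, 215 and 214 with VPA (log2 fold change 2.54 ± 0.132, SE, n = 3 and 3, edgeR adjusted p = 4.04e-13). UNC5B had 2105, 1963 and 1833 untreated and 1718, 1576 and 1505 with VPA (log2 fold change -0.30, edgeR adjusted p = 8.1e-05), and UNC5C was lower (-0.41). With ribosomal protein scaling neither passed the adjusted p (-0.031 and -0.14). The ranges of UNC5A did not overlap, and UNC5B remained the major member. Its share of the family level per kb went from 81.5% to 69.5%, and that of UNC5A from 3.0% to 18.2%. The ratio of UNC5A to UNC5B reads was 0.0172, 0.0213 and 0.0218 untreated and 0.151, 0.136 and 0.142 with VPA. NEO1, the neogenin receptor, was higher by 0.11 at an adjusted p of 0.036, and did not pass without untreated replicate 1 (0.079) or 3 (0.090) or VPA replicate 2 (0.089) or 3 (0.10), nor with DESeq2 size factors (0.092), no filter (0.084) or DESeq2 (0.081). DCC, the attractive netrin receptor, had 0 reads in the untreated libraries and 0, 1 and 4 with VPA.

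**Figure D2:**
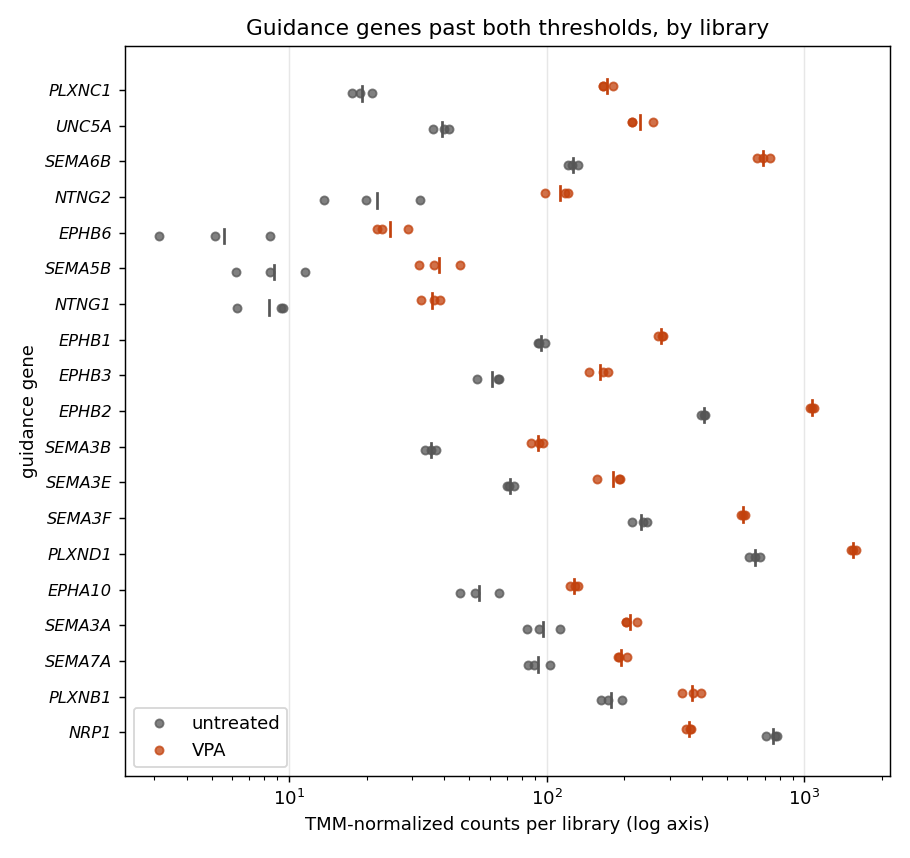
Normalized counts (log axis) in the 3 untreated (grey) and 3 VPA (orange) libraries for the 19 guidance genes past both thresholds, with a vertical tick at each mean. The 2 conditions do not overlap in any of them, which their selection by these thresholds largely fixed. Of all tested genes, 34.8% lay above and 31.0% below untreated in every VPA library. NRP1 is the single gene shown with VPA below untreated.

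**Figure D3:**
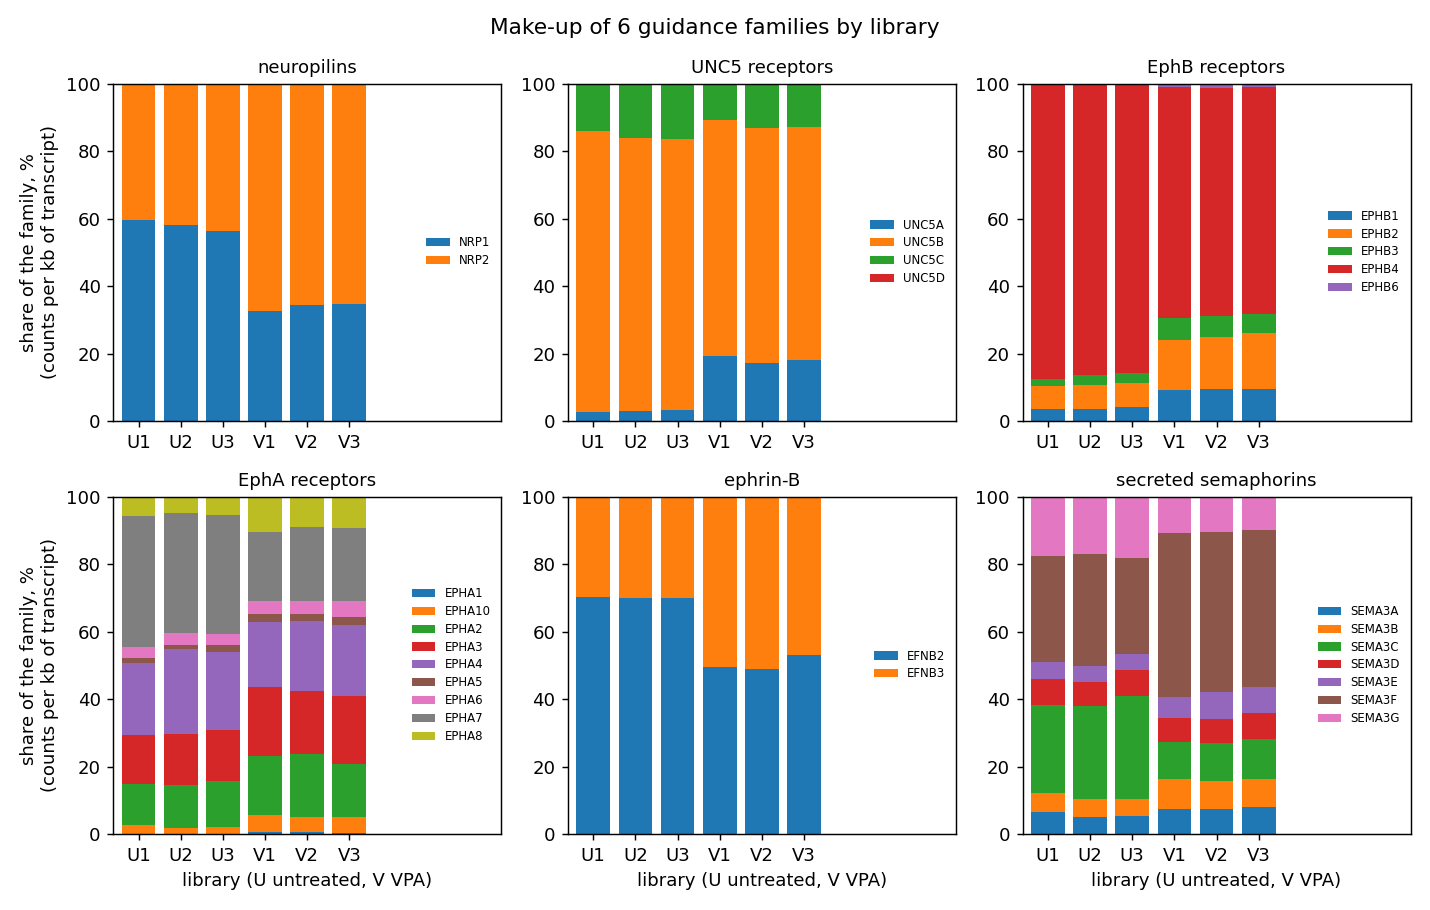
Share of each gene in its family's level per kb of transcript (percent), by library (U untreated, V VPA), for 6 families. EFNB1, listed at 0 with the other genes of the X chromosome, is not in the ephrin-B panel. The 3 libraries of a condition are alike, and NRP2, UNC5A, EPHB2, EFNB3 and SEMA3F take larger shares in every VPA library.

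Set side by side, ligands and receptors were alike in the number of calls. Of the 28 tested ligands 9 were up-regulated (32.1%), 19 were higher and 5 were lower, and of the 26 tested receptors 9 were up-regulated (34.6%), 19 were higher and 5 were lower. The median log2 fold changes were 0.57 for ligands and 0.50 for receptors. With 1 library left out the ligand median ranged from 0.54 to 0.59 and the receptor median from 0.43 to 0.64, and without untreated replicate 3 the receptors (0.64) stood above the ligands (0.58). The summed level per kb of transcript per 1000000 reads went from 105 ± 1.84 to 133 ± 2.62 (SD, n = 3) for ligands, a ratio of 1.27, and from 151 ± 3.38 to 171 ± 4.68 for receptors, a ratio of 1.13. The ratio of the ligand sum to the receptor sum was 0.692, 0.685 and 0.702 untreated and 0.773, 0.767 and 0.792 with VPA, the groups not overlapping.

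**Figure D4:**
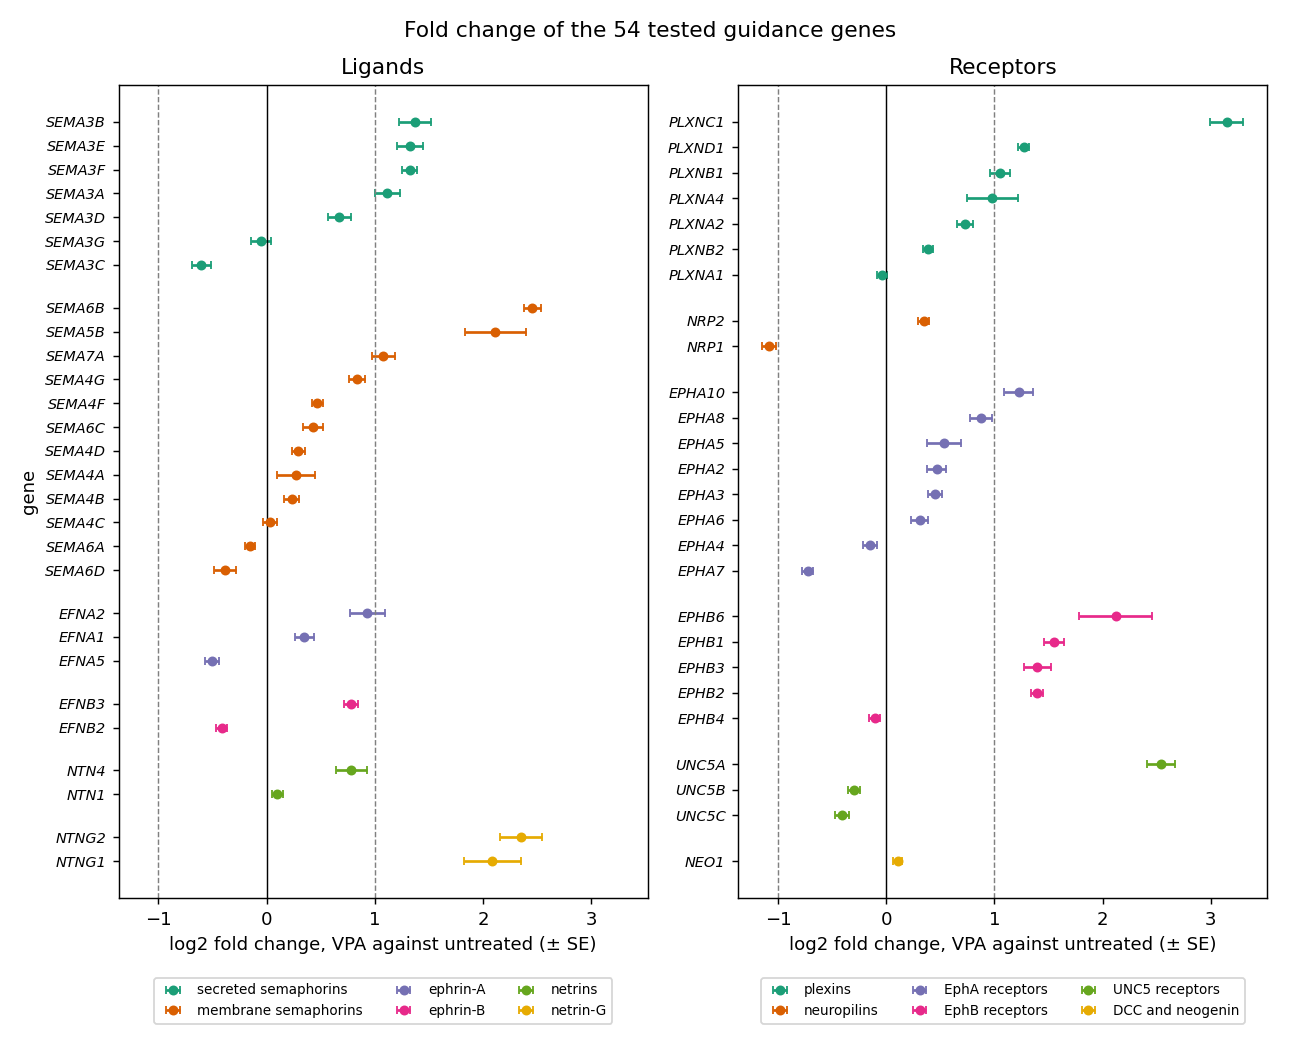
Log2 fold change (± SE, from edgeR) of the 54 tested guidance genes, ligands on the left and receptors on the right, grouped by family, with dashed lines at 1 and -1. Genes lie on both sides of 0 in every family with more than 1 tested gene other than the netrins and netrin-G.

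Ligands and their receptors were compared pair by pair as values. SEMA3E and PLXND1 were both up-regulated (1.32 and 1.27), as were SEMA7A and PLXNC1 (1.08 and 3.15). SEMA3A was up-regulated at 1.12 while NRP1 was down-regulated at -1.08, and SEMA3F at 1.32 met NRP2 at 0.35. SEMA6A (-0.15) was lower and PLXNA2 (0.73) higher. SEMA6B (2.45) and PLXNA4 (0.98) moved in the same direction, and SEMA4D (0.29) and PLXNB1 (1.05) did too. Among Eph partners, EFNB3 (0.78) and EPHB2 (1.40) were both higher, and EFNA5 (-0.51) and EPHA7 (-0.73) both lower. EFNB2 (-0.41) was lower with EPHB4 (-0.11) not past the test. NTN1 (0.10), not past the test, stood beside UNC5A (2.54), UNC5B (-0.30), UNC5C (-0.41) and NEO1 (0.11).

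Of 53 genes encoding partners and effectors of these pathways, 46 were tested, 9 were up-regulated (19.6%), 27 were higher and 6 were lower, with a median of 0.18. Over all genes tested 12.0% were up-regulated, 32.9% higher and 30.0% lower, with a median of 0.0058. CRMP1, a collapsin response mediator that transmits semaphorin 3A signals, rose most, from a mean of 18.8 to 303 normalized counts (log2 fold change 4.0, edgeR adjusted p = 7.18e-16). ABLIM3, an actin-binding protein, rose by 3.60, from 8.28, 17.8 and 23.1 normalized counts untreated to 206, 189 and 205 with VPA. Its untreated replicate 1 was below the minimum of 10, so ABLIM3 passed the filter with the help of the VPA libraries. Also up-regulated were DSCAML1 (3.20), FLRT1, of a family that binds UNC5 receptors (2.57), DRAXIN, a netrin-binding repellent (2.31), NGEF, the ephexin exchange factor downstream of EphA receptors (1.44), MICAL1, an enzyme that disassembles actin downstream of plexins (1.21) and NRCAM, a cell adhesion partner of neuropilins (1.11). DSCAML1 (3.11, 3.14 and 1.05 normalized counts untreated) and DRAXIN (1.04, 3.14 and 5.25) were below 10 in every untreated library and were tested only through the VPA libraries. NRCAM was not called with glmTreat.

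The 11 genes that were not tested were mostly near 0. EPHA1 had 1, 1 and 0 reads untreated and 10, 10 and 4 with VPA, and when the filter was dropped it was up-regulated (log2 fold change 3.23, edgeR adjusted p = 0.000194, DESeq2 adjusted p = 0.0176). ZYX, which overlaps EPHA1 on the opposite strand with 12435 reads, did not pass (log2 fold change 0.07). EFNA3 had 18 reads in all, SEMA5A 1, and NTN3, NTN5 and UNC5D at most 12 in any library. EFNA4 was listed at 0, and so was EFNA4-EFNA3, the readthrough gene that overlaps both EFNA4 and EFNA3 on the same strand. Reads shared by overlapping genes may have been set aside as ambiguous, so the counts of EFNA3 and EFNA4 need not reflect low expression. EFNB1, PLXNA3 and PLXNB3 lie on the X chromosome and were also listed at 0, as were all 1437 genes of that chromosome in these files, so the files say nothing of their expression.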

How the data were processed

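RNA-seq libraries of HEK293T cells (3 untreated, 3 with VPA) were made by a strand-specific mRNA protocol. The authors deposited raw read counts per gene. They trimmed reads with SOAPnuke and aligned them to hg38 with STAR, and counted with HTSeq, versions 2.7.10b and 2.0.1 in the submitters' processing notes. The annotation and the strand setting are not given in the sources used here. The 5 HTSeq summary lines were left out (no feature 6.80 to 7.69%, ambiguous 1.97 to 2.10%, not unique 2.81 to 2.92% of reads). Libraries of a condition differed by more than sampling noise (chi-square per gene 1.62 to 4.80).

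Counts were tested with edgeR 4.0.16 (R 4.3.3, limma 3.58.1) by quasi-likelihood on condition alone, with TMM scaling, filterByExpr (minimum count 10), a prior of 0.125 counts and adjustment by Benjamini-Hochberg over all 15298 genes. Alternatives were DESeq2 1.42.0, other scalings (one to 76 ribosomal protein genes with a mean of at least 100), other filters, glmTreat, a prior of 2 counts, a fit blocked on replicate number and fits that drop 1 library. On simulated counts edgeR recovered 200 of 200 changed genes with 1 false call over 15041 genes, and DESeq2 200 of 200 over 15298. The simulation gave all genes the same dispersion and had equal numbers of rises and falls. Its changes all lay well past the fold threshold and left out the genes with the lowest counts. It therefore checks the procedure only, and cannot show how reliable calls near the threshold or at low counts are. Levels per kb divide normalized counts by the length of the Ensembl canonical transcript (GENCODE) and by the mean library total, per 1000000 reads.

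The guidance genes and all lists were chosen with earlier results of these data known. Genes named are those past both thresholds, the strongest and the most counted of each family, those not tested, and the partners and effectors past both thresholds, of which 1 is not reported here. Promoter windows came from RefSeq (GRCh38.p14), with 44 of the 65 genes having a window at the outermost start.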

Additional observations from a re-analysis of the deposited data

How the results depend on the processing

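The number of up-regulated guidance genes was 18 under TMM scaling. Other scalings gave 18 (DESeq2 size factors), 19 (upper quartile), 21 (library totals) and 24 (ribosomal proteins), other filters gave 19 (none) and 16 (a minimum of 10 in each library), and DESeq2 and glmTreat gave 19 and 14. EPHA10, PLXNB1, SEMA3A and SEMA7A were no longer called with glmTreat, which tests against the fold threshold itself and was not applied to the results of the adjusted p alone. NRP1, the single down-regulated guidance gene, fell short of the fold threshold with library totals, ribosomal proteins and glmTreat, leaving 0 called down. The guidance genes lower by the adjusted p went from 10 to 5 with ribosomal protein scaling. Over all genes, the share up-regulated moved alongside, at 12.0% (TMM), 16.3% (ribosomal proteins), 13.9% (library totals), 13.0% (upper quartile) and 11.8% (DESeq2 size factors). The number was 1833 with TMM, against 1179 with the minimum in each library and 1149 with glmTreat. The 77 down-regulated genes became 38 (library totals), 17 (ribosomal proteins), 162 (no filter), 43 (minimum in each library) and 8 (glmTreat). Genes higher by the adjusted p numbered 9185 with ribosomal proteins, and genes lower numbered 2372 with library totals and 870 with ribosomal proteins. Of all genes past the adjusted p, the higher ones made up 52.3% (TMM), 63.0% (upper quartile), 73.9% (library totals) or 91.3% (ribosomal proteins). The median over all genes was 0.0058, and it was -0.0081 with DESeq2 size factors, 0.071 with upper quartile, 0.14 with library totals, 0.27 with ribosomal proteins, -0.016 with no filter and -0.019 with DESeq2. In the order upper quartile, library totals, ribosomal proteins, the median was 0.64, 0.70 and 0.84 for ligands, 0.57, 0.63 and 0.77 for receptors and 0.57, 0.63 and 0.77 for all guidance genes, and the ligand median was 0.47 with the minimum in each library. Signs changed for EPHA4 (0.12) and SEMA6A (0.11) with ribosomal proteins, for EPHB4 with library totals (0.026) and ribosomal proteins (0.16), and, in the order upper quartile, library totals and ribosomal proteins, for PLXNA1 (0.026, 0.092 and 0.23) and SEMA3G (0.017, 0.083 and 0.22). All of these scalings also raised the median of all genes. With 1 library left out, 18 to 19 guidance genes were up-regulated, the medians ranged from 0.43 to 0.64 for receptors, from 0.46 to 0.60 for all guidance genes and from -5.5e-05 to 0.0063 for all genes, and SEMA4C ranged from -0.039 to 0.070. Of 967 comparisons of a single gene with its main value, 910 kept both direction and side of the threshold. The labels do not say whether same-numbered libraries were paired, and the main fit treated them as unpaired. The deviations of numbers 1, 2 and 3 correlated at 0.14, 0.021 and 0.080, against -0.11 to 0.031 between different numbers. Correlations this weak cannot settle whether the libraries were paired. The replicate block gave 18 up-regulated guidance genes, with 39 higher and 11 lower, adding EPHB4 as lower and NTN1 as higher. Low counts limit the genes near the filter, where 3 up-regulated guidance genes were tested only through the VPA libraries.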
